A study of Mus musculus with 6 samples.

Results

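The genes described here encode the pyruvate dehydrogenase complex of the mitochondrion (Pdha1, Pdhb, Dlat and Pdhx), the kinases that switch it off (Pdk1, Pdk2, Pdk3 and Pdk4) and pyruvate carboxylase (Pcx). They were taken as the probe sets whose platform annotation names a single gene on this list of 9, without regard to the measured values. Of the 22690 probe sets on the array, 17 met this rule, and they covered 8 of the 9 genes. No probe set met it for Pdhx, which is not analysed here. Of the 17, 13 were ordinary probe sets and 4 were control probe sets that the array maker placed along the Pcx transcript.

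The arrays carried aorta RNA from C57BL/6J mice, an inbred strain, fed either regular chow or a high fat diet, with 3 arrays for each. Each array held RNA pooled from 3 aortas after the adventitia and the fat around the vessel had been stripped away, so n = 3 pools per diet throughout. The high fat diet lasted 16 to 18 weeks and began at 10 weeks of age for high fat replicates 2 and 3. High fat replicate 1 was instead labelled with an age of 16 to 20 weeks and with no sex, while the other 5 labels gave males. Chow replicates 2 and 3 were labelled 26 to 28 weeks old, and no age was given for chow replicate 1. A pool hides the spread between its animals, and p-values here measure the spread between pools.

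The complex stands where glycolysis meets the mitochondrion and turns pyruvate into acetyl-CoA in an irreversible step. Its E1 enzyme, built from the alpha subunit Pdha1 and the beta subunit Pdhb, takes the carboxyl group off pyruvate. Its E2 core, Dlat, passes the acetyl group to coenzyme A on a lipoyl arm, E3 (Dld) recharges that arm, and Pdhx ties E3 to the core. The 4 kinases phosphorylate Pdha1 and stop the flow, and Pdk4 is known as the kinase induced by fasting and fatty acids through PPAR nuclear receptors. Pcx takes pyruvate the other way, to oxaloacetate, which refills the citric acid cycle and, in adipocytes, feeds the synthesis of fatty acids and glycerol.

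On high fat diet the means of Pdk4 and of each probe set of Pdha1, Pdhb and Dlat were higher than on chow, by 0.18 to 0.62 on the log2 scale, and the ordinary probe set of Pcx was lower by 0.28. Pdk1 and Pdk3 had lower and Pdk2 had slightly higher means. None of these differences passed the test across the array. Signals were compared as log2(signal + 6) with limma, a linear model that shares its estimate of the spread between probe sets. The p-values were adjusted over the 13575 probe sets whose mean of log2(signal + 6) was above that of a signal of 40.7. Of the 13 ordinary probe sets of these genes, 12 lay above that value and were tested. Of these 12, 0 had an adjusted p under 0.05, against 0.0737% of all probe sets tested (10 of 13575). Their smallest adjusted p was 0.586. Of the 12, 3 had an unadjusted p under 0.05 and a higher mean on high fat diet, where 3.92% of all tested did, and 0 had one with a lower mean, where 3.11% did. These 3 were Pdk4 and both probe sets of Pdhb. Higher means were found for 9 of the 12, against 48.2% of all tested, and the median log2 fold change was 0.28 against -0.01 over all. Dlat is counted 3 times in these values and Pdha1 and Pdhb 2 times each. With 1 probe set per gene, the one of highest mean signal, 5 of the 8 genes had higher and 3 had lower means, and their median was 0.12.

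The count of 3 rested on single pools. It was 0 when either high fat replicate 2 or chow replicate 2 was left out. With high fat replicate 3 left out it was 1, the dimmer Pdhb probe set. With chow replicate 1 left out it was 2, Pdk4 and 1 of the Dlat probe sets. It was 4 with chow replicate 3 left out. With high fat replicate 1 left out, the pool with the different age label, it was also 4, and Pdk3 then had an unadjusted p under 0.05 with a lower mean. The lowest adjusted p of any member under any of these was 0.302.

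**Figure D1:**
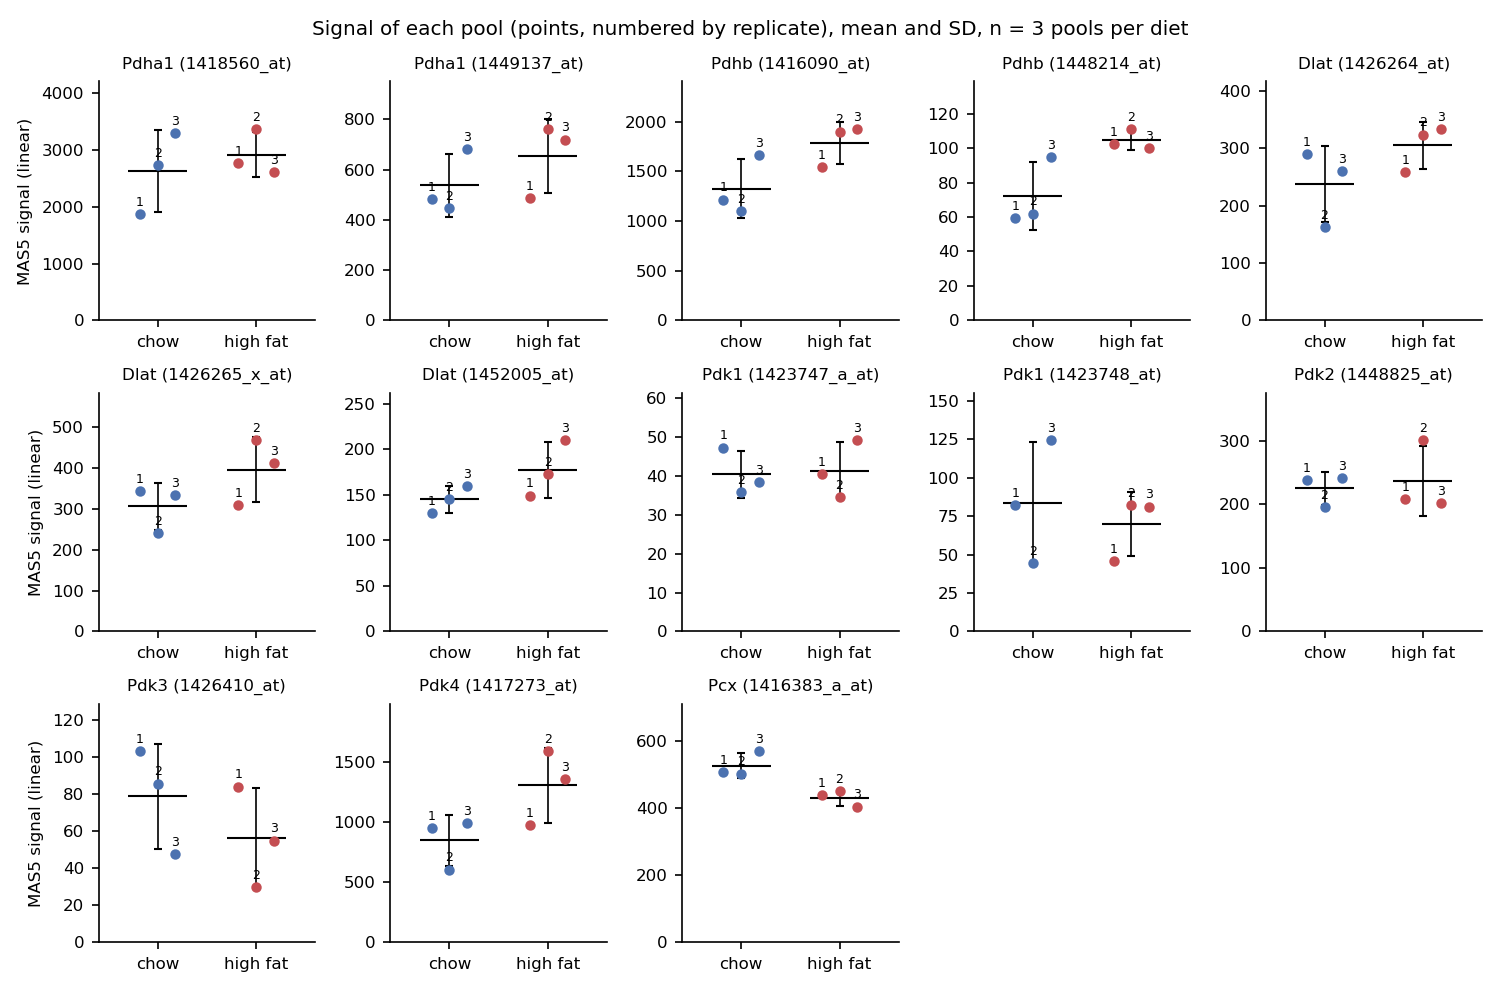
Signal on a linear scale (vertical axis of each panel) of the 13 ordinary probe sets in each pool, with points numbered by replicate, chow in blue and high fat in red. Horizontal lines are means and bars are SD, n = 3 pools per diet. The diets do not overlap for Pcx, with 403.4 to 449.3 on high fat diet and 501.5 to 568.3 on chow, and for 1 of the Pdhb probe sets.

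The window from 250 bases before to 50 after the annotated start is shown for 4 of the genes. Pdk4, Pdhb and Dlat were chosen because they had the highest fold changes of the 8 measured genes. Pcx was chosen as the one whose high fat pools all lay below its chow pools. The sequences are RefSeq's on GRCm38.p6, 5′ to 3′ on the gene's own strand, and all 9 genes had at least 1 window in that table, 12 windows in all. Capitals mark exact matches, on either strand, to any of 5 short motifs: AGGTCA (a nuclear receptor half-site), TGTTTAC (forkhead factors), ACGTG (the core of the hypoxia response element), GGGCGG (a GC box) and CCAAT (the CCAAT box). These windows lie at chr6:5496229-5496528 (minus strand) for Pdk4, chr14:8172943-8173242 (minus) for Pdhb, chr9:50659731-50660030 (minus) for Dlat and, for the 2 annotated starts of Pcx, at chr19:4510222-4510521 and chr19:4594069-4594368 (plus).
Pdk4: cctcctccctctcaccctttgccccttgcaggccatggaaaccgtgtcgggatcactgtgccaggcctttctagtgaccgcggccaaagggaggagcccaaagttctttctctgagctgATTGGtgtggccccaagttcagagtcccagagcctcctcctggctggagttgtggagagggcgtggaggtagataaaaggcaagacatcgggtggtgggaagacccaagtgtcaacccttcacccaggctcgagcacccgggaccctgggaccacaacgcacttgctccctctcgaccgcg
Pdhb: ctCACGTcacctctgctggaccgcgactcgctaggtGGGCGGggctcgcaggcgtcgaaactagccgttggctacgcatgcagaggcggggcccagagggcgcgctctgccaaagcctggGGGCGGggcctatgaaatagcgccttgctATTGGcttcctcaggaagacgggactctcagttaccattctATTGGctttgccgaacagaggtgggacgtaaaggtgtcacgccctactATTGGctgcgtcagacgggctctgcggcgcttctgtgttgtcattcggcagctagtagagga
Dlat: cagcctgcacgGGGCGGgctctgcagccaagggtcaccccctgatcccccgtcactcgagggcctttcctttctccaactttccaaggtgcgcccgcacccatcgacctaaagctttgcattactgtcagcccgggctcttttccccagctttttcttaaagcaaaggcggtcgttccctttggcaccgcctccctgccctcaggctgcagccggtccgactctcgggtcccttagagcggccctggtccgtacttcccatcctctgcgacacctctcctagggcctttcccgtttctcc
Pcx (upstream start): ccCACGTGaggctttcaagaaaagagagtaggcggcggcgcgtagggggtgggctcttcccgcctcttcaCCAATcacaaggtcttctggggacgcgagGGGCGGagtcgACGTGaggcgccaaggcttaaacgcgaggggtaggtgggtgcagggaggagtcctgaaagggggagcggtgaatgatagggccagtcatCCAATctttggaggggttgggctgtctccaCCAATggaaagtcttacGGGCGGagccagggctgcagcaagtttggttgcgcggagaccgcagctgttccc
Pcx (downstream start): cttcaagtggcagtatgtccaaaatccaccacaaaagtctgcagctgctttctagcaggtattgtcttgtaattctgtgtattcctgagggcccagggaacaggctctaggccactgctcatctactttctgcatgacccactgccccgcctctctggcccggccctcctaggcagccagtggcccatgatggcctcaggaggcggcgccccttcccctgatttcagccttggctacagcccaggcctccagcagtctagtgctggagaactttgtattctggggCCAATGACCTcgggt

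The half-site AGGTCA was found in 1 of the 12 windows of these genes, the downstream Pcx window, where it is read on the other strand and overlaps a CCAAT box, and in 16.3% of the 32851 windows in the table. TGTTTAC was found in 0 of 12 and in 3.6% of all windows. ACGTG was found in 4 of 12, Pdhb and the upstream Pcx window among them, and in 19.6% of all. GGGCGG was in 6 of 12, Pdhb, Dlat and the upstream Pcx window among them, and in 35.7% of all. CCAAT was in 7 of 12, including Pdk4, Pdhb and both Pcx windows, and in 37.4% of all. The 12 windows held 40.3 to 68.0% G and C, and those shown held 57.0 to 62.0%. The median over all windows was 52.7%, and the shares were not matched for this content. In the Pdk4 window the only capitals are 1 CCAAT box, read on the other strand, and a match is a match of letters and no more.

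Pdhb, the beta subunit of E1, was measured by a bright and a dim probe set, and both had higher means on high fat diet. The bright probe set read 1215, 1097.8 and 1664.8 in chow replicates 1, 2 and 3 and 1542.7, 1899.3 and 1924.2 in high fat replicates 1, 2 and 3. The highest chow pool, replicate 3, lay above the lowest high fat pool, replicate 1, so the diets overlapped. The means were 1326 ± 299 and 1789 ± 213 (SD, n = 3 each). The log2 fold change was 0.45 with an SE of 0.17 (95% interval 0.07 to 0.82, adjusted p = 0.632, limma), and errors of fold changes below are SEs too. The dim probe set read 59.5, 62 and 94.9 on chow and 102.4, 110.9 and 100.1 on high fat diet. Here all 3 high fat pools lay above all 3 chow pools, the only such case among the 12, where 6.26% of all probe sets tested had it. Its log2 fold change was 0.53 ± 0.21 (adjusted p = 0.639). In both probe sets chow replicate 3 stood apart from the other 2 chow pools, on the side of the high fat pools.

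Pdha1, the alpha subunit of E1 and the target of the kinases, lies on the X chromosome in the mouse. Its bright probe set read 1867.6, 2731.3 and 3288.7 on chow and 2768.8, 3358.9 and 2610.6 on high fat diet. Its second probe set read 482.8, 447.4 and 682 on chow and 487.2, 761 and 719.7 on high fat diet. The diets overlapped in both, and the chow pools alone spread over most of the range. The log2 fold changes were 0.18 ± 0.19 (95% interval -0.25 to 0.60, adjusted p = 0.880) and 0.28 ± 0.21 (-0.18 to 0.74, adjusted p = 0.815). The first became -0.05 without chow replicate 1, the lowest pool.

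Dlat, the E2 core, was read by 3 probe sets. The first read 290.1, 162.7 and 260.3 on chow and 258.2, 324.2 and 333.3 on high fat diet. The second, of a type that can bind related transcripts, read 344, 239.9 and 334.2 on chow and 309.6, 467.8 and 411.1 on high fat diet. Chow replicate 2 was the lowest pool in both, and high fat replicate 1 lay within the chow range in both. The third, the dimmest, read 130, 145.4 and 159.2 on chow and 148.8, 172.8 and 209.7 on high fat diet, with high fat replicate 1 again among the chow pools. The log2 fold changes were 0.39 ± 0.22, 0.36 ± 0.20 and 0.27 ± 0.18, with adjusted p-values of 0.765, 0.752 and 0.798. Without chow replicate 2 the first of these was 0.14.

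Dld, the E3 enzyme, is shared with the other 2-oxoacid dehydrogenase complexes and is not among the 9 genes. It read 294.3, 186.7 and 259.3 on chow and 289.7, 307 and 369.4 on high fat diet, which gave a log2 difference of 0.39 ± 0.19 (adjusted p = 0.735). Chow replicate 2 was its lowest pool, as for Dlat. The phosphatase genes Pdp1, Pdp2 and Pdpr, whose products reverse the kinases, had no probe set of that single name.

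**Figure D2:**
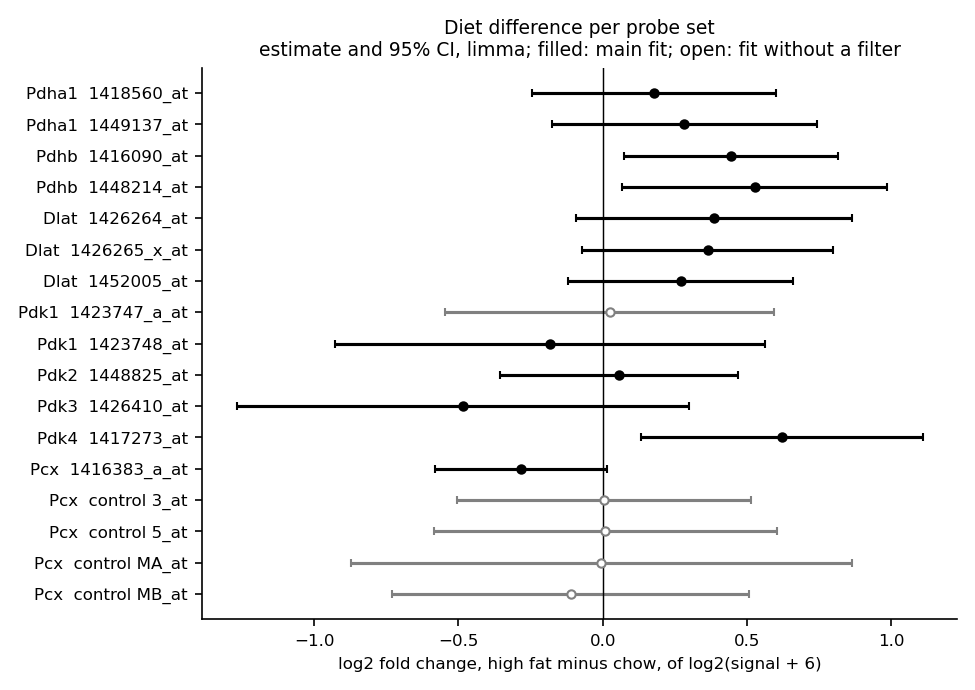
Log2 fold change, high fat minus chow (horizontal axis), of the 17 probe sets, with 95% intervals from limma on 3 pools per diet. Filled points are from the fit of the 13575 probe sets kept, open points from the fit without a filter. The intervals of Pdk4 (0.13 to 1.11) and of both Pdhb probe sets lie above 0 before adjustment, and the 4 Pcx controls lie between -0.11 and 0.01.

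Among the kinases Pdk4 had the highest fold change. It read 950.6, 603.9 and 990.1 in chow replicates 1, 2 and 3 and 971.6, 1585.9 and 1353.5 in high fat replicates 1, 2 and 3. High fat replicates 2 and 3 were well above every chow pool, while high fat replicate 1 lay between chow replicates 1 and 3, so the diets overlapped. The means were 848.2 ± 212 on chow and 1304 ± 310 on high fat diet, which gave a log2 difference of 0.62 ± 0.22 (95% interval 0.13 to 1.11, adjusted p = 0.586, limma). It was 0.40 without chow replicate 2, the lowest pool, and 0.82 without high fat replicate 1.

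Pdk2, the most widely expressed of the kinases, read 238.2, 195.1 and 241.1 on chow and 208.1, 300.6 and 202 on high fat diet. A single high fat pool, replicate 2, was above the chow range, and the log2 fold change was 0.06 ± 0.19 (95% interval -0.36 to 0.47, adjusted p = 0.962). Pdk1, known as a target of the hypoxia-inducible factor, read 82, 44.6 and 124.4 on chow and 45.6, 82.3 and 81.2 on high fat diet with its brighter probe set, a log2 fold change of -0.18 ± 0.34 (adjusted p = 0.930). The chow pools of Pdk1 spanned more than the high fat pools, and its direction turned without chow replicate 3 (0.14) or high fat replicate 1 (0.07). The second Pdk1 probe set did not reach the mean log2 value required for the test, with 35.8 to 47.3 on chow and 34.6 to 49.2 on high fat diet. Pdk3, X-linked like Pdha1, read 102.9, 85.4 and 47.6 on chow and 83.9, 29.6 and 54.8 on high fat diet, which gave a log2 difference of -0.49 ± 0.36 (95% interval -1.27 to 0.30, adjusted p = 0.814). The interval of Pdk3 was the widest of those tested here.

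Whether Pdk4 differed from the other kinases was asked of the difference itself, as the change of Pdk4 less the change of the other kinase within each array, with probe sets of a gene averaged and each difference set to a chow mean of 0. Against Pdk2 the difference was 0.11, -0.26 and 0.15 on chow and 0.33, 0.52 and 0.85 on high fat diet, 0.57 higher on high fat diet with no overlap. Against Pdk1 it was 0.70 higher, again with no overlap, and against Pdk3 it was 1.11 higher, with overlap. An exact two-sided permutation test gave p = 0.1, 0.1 and 0.2, and 0.1 is the smallest p that 3 pools against 3 allow. Adjusted over the 7 differences computed, the exact permutation values were 0.14, 0.14 and 0.233. Pdk4 was already the kinase of highest fold change, and how often other pairs of genes separate the diets was not computed.

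Pcx was the only one of these genes whose pools on high fat diet all lay below those on chow. Its ordinary probe set read 506.7, 501.5 and 568.3 on chow and 438.8, 449.3 and 403.4 on high fat diet. The spread within each diet was small, with means of 525.5 ± 37.2 and 430.5 ± 24.0, and 6.08% of all probe sets tested had all high fat pools below all chow pools. The log2 fold change was -0.28 ± 0.14 (95% interval -0.58 to 0.01, adjusted p = 0.726), and it lay between -0.32 and -0.23 with any 1 pool left out.

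The 4 control probe sets of Pcx did not share this pattern. The control at the 3′ end read 163.4, 207.2 and 288.5 on chow and 201.8, 273 and 179.1 on high fat diet, with the diets interleaved. In the fit without a filter its log2 fold change was 0.00 ± 0.23 (95% interval -0.51 to 0.51, adjusted p = 0.998). The controls at the 5′ end and at both middle positions had 30.9 to 47.8, 19.8 to 72.3 and 38.9 to 77.5 on chow and 32.7 to 44.4, 41.2 to 45 and 49.6 to 57.9 on high fat diet, with log2 fold changes of 0.01, -0.01 and -0.11. Within arrays the ordinary probe set less the 3′ control differed by -0.29 between the diets on the log2 scale, with overlap between the diets (exact permutation p = 0.4, adjusted over the 7 differences 0.4). The 3′ over 5′ control signal is a measure of how complete the labelled RNA is. For Pcx it was 4.46 to 6.71 on chow and 5.28 to 6.15 on high fat diet, and overlapped as well. The same ratio was lower for the Gapdh controls, at 0.887 to 1.38 on chow and 0.964 to 1.07 on high fat diet. For the actin controls it was 1.37 to 1.79 and 1.27 to 1.94. The arrays therefore hold both a Pcx probe set with separated diets and a 3′ control with nearly equal means of 219.7 ± 63.5 and 218 ± 49.0, and the interval of the control includes the value of the ordinary probe set.

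Pyruvate is oxidised by the complex or carboxylated by Pcx, and the change of each subunit was set against that of Pcx within each array. For Pdhb the difference was -0.11, -0.15 and 0.26 on chow and 0.63, 0.80 and 0.89 on high fat diet, 0.77 higher on high fat diet. For Dlat it was 0.62 and for Pdha1 0.51 higher. In each of the 3 the diets did not overlap, with exact permutation p = 0.1, the smallest possible, and 0.14 adjusted over the 7 differences. The ordinary Pcx probe set separated the diets by itself, while both Pdha1 probe sets overlapped. How often other pairs of genes separate the diets was not computed, so there is no share to set beside these 3. These differences use the ordinary Pcx probe set, and they share it, so that they are not independent of each other. They were not computed against the 3′ control of Pcx, in which the diets overlapped, so they hold for the ordinary probe set only.

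Genes that feed, resemble or regulate the complex were read from 8 lists, and outside the PPAR targets 0 of them passed the test. Among 11 measured genes of pyruvate and lactate supply, 6 had higher and 5 lower means, with a median of 0.10, and 2 had an unadjusted p under 0.05. Slc16a1, the MCT1 carrier of lactate, pyruvate and ketone bodies, had 233.1, 161.5 and 258.1 on chow and 374.3, 462.2 and 629.2 on high fat diet. Each high fat pool was above each chow pool. The log2 fold change was 1.14 ± 0.22 (adjusted p = 0.235), larger than that of any of the 8 measured genes of the complex, kinases and Pcx. Pkm, the pyruvate kinase of most tissues, had 1594 ± 170 on chow and 2082 ± 27.3 on high fat diet, which gave a log2 difference of 0.39 (adjusted p = 0.518). Mpc1, a subunit of the carrier that brings pyruvate into the mitochondrion, had 0.10 (adjusted p = 0.925), and Ldha and Ldhb, the lactate dehydrogenases, had 0.18 and 0.30.

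Of 6 measured genes of the sister complexes, which share the build and cofactors of pyruvate dehydrogenase, 5 had higher means, with a median of 0.34. Dlst, the E2 core of the 2-oxoglutarate complex, had 613.9 ± 86.7 on chow and 821.2 ± 64.4 on high fat diet (0.42, adjusted p = 0.580). Bckdhb, the E1 beta subunit of the branched-chain complex, had 281.4 ± 51.8 and 393.1 ± 62.4 (0.48, adjusted p = 0.632). The other E1 genes had smaller values, 0.23 for Ogdh and 0.27 for Bckdha, and Dbt, the E2 core of the branched-chain complex, had -0.15. Of 4 tested thiamine and lipoate genes 3 were higher. Slc19a2, a thiamine transporter, had 38.9 ± 0.4 and 60.1 ± 14.6 (0.54, adjusted p = 0.680). Lipt2, which attaches a lipoate precursor, had 62.9 ± 6.17 and 48.03 ± 1.20 (-0.35, adjusted p = 0.766).

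Of 14 measured genes that use or supply pyruvate, oxaloacetate or acetyl-CoA, 12 had higher means, with a median of 0.15. Cs, citrate synthase, which joins the products of the complex and of Pcx, had 1367 ± 165 on chow and 1785 ± 327 on high fat diet (0.37, adjusted p = 0.676), and Me1, malic enzyme, differed by 0.72 on the log2 scale (adjusted p = 0.531). Pck1 and Pck2, which carry oxaloacetate on from Pcx to phosphoenolpyruvate, had 0.00 and 0.01. Of the 6 tested genes of other biotin carboxylases and biotin handling, 4 were higher, with a median of 0.05. Pcca and Mccc1, the biotin-bearing subunits of propionyl-CoA and methylcrotonyl-CoA carboxylase, had 0.32 and 0.25 (adjusted p = 0.716 and 0.752), opposite in sign to the ordinary Pcx probe set.

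Of the regulators known to act on Pdk4, 12 genes were tested, of which 9 had higher means, with a median of 0.17. Ppara, a fatty acid receptor and activator of Pdk4, had 110.4, 83.2 and 136.6 on chow and 213.4, 203.7 and 212.8 on high fat diet (0.92 ± 0.19, adjusted p = 0.295). Unlike Pdk4, it was as high in high fat replicate 1 as in the other high fat pools. Esrra, the estrogen-related receptor alpha, had 91.2 ± 5.92 on chow and 128.6 ± 11.5 on high fat diet (0.47, adjusted p = 0.586). Foxo1, which drives Pdk4 in fasting, had -0.21 (adjusted p = 0.798). Of 12 PPAR targets on the array 10 were bright enough for the test. All 10 had higher means, with a median of 0.46. Of these 1 rose, Fabp3, a fatty acid binding protein, with a log2 fold change of 1.67 (adjusted p = 0.00163). The value of Pdk4, 0.62, lay between those of Acadl, an acyl-CoA dehydrogenase, at 0.47 and Slc25a20, the carnitine carrier, at 0.69, neither of which passed the test.

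**Figure D3:**
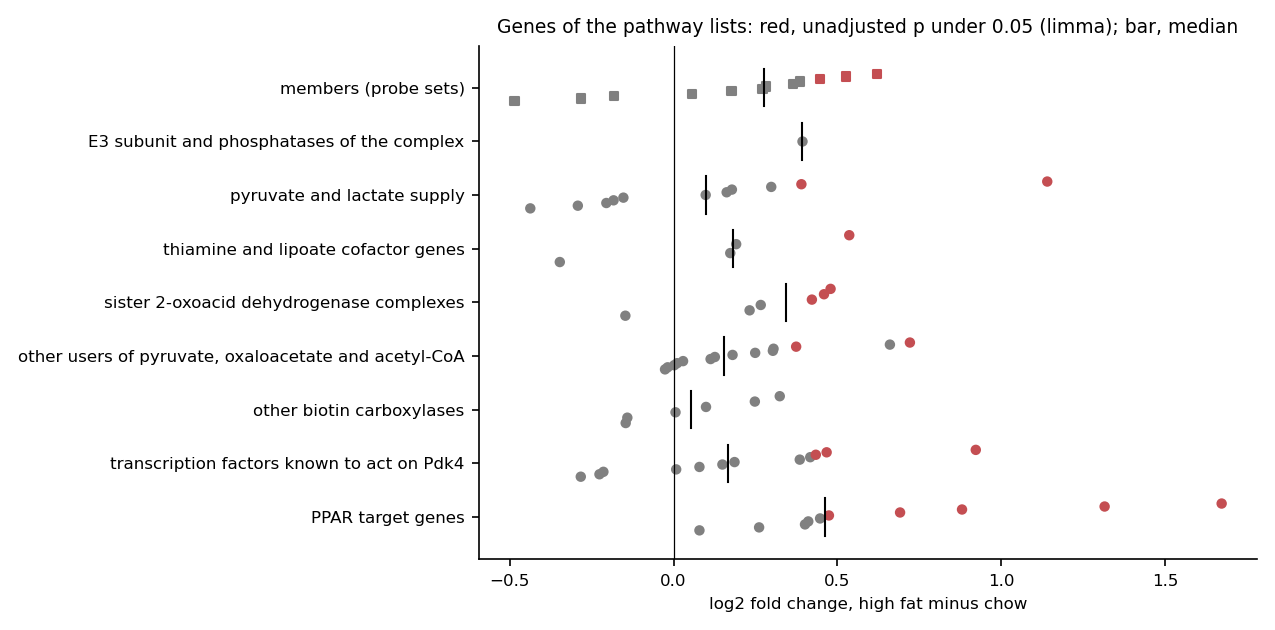
Log2 fold change, high fat minus chow, on the horizontal axis. Squares are the 12 probe sets tested for the 8 measured genes. Circles are the tested genes of 8 pathway lists, with 1 probe set per gene. Red marks an unadjusted p under 0.05 in limma and vertical bars are medians. The medians run from 0.05 for the biotin carboxylases to 0.46 for the PPAR targets, against 0.28 for the 12 probe sets of the complex, kinases and Pcx, or 0.12 with 1 probe set for each of their 8 genes.

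Over the 6 arrays, the genes with the pattern most like Pdk4, by Pearson correlation of log2 signals against 12477 probe sets of other genes, were Etfdh, an electron carrier of fatty acid oxidation (r = 0.99), Tmem147, Ctss, a lysosomal protease of macrophages (0.99), Phb2, a prohibitin of the mitochondrion, and Dnaja3, a mitochondrial chaperone (0.98). None of these passed the test, and their log2 fold changes lay between 0.13 and 0.68. Those most like Pcx were Dcbld2 (0.99), Oga, Sephs1, Slmap and Mkrn1 (0.97), with log2 fold changes between -0.67 and -0.16. With 6 arrays and this many probe sets such values are a description of these pools.

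Markers of other cell types differed between the pools along with these genes. In bulk RNA fewer cells of a type and less RNA per cell cannot be told apart. Smooth muscle markers, the cells expected in the stripped vessel, were bright in every pool, with summed signals of 8 genes of 23353 to 28994 on chow and 24155 to 25059 on high fat diet. Of these 8 genes 7 were lower in mean on high fat diet (median -0.13), and over the 6 arrays their average ran against Pdk4 (Pearson r = -0.82). Fibroblast markers were bright too, with summed signals of 7 genes of 10295 to 11169 on chow and 9787 to 10232 on high fat diet. Of these 7 genes 4 had lower and 3 higher means (median -0.12). The fibroblast average had r = -0.46 with Pdk4 and 0.25 with the ordinary Pcx probe set. Summed endothelial markers separated the diets, at 1170 to 1234 on chow and 1347 to 1590 on high fat diet. Of the 8 genes 7 had higher means (median 0.33), while Pecam1 was lower, with 328.6 ± 44.7 and 293.4 ± 36.8. Taken singly, Cdh5, Tie1, Vwf and Cldn5 separated the diets, as 6.26% of all probe sets tested did in that direction. Pecam1, Tek, Kdr and Emcn overlapped. The average of the endothelial markers had r = 0.64 with Pdk4 and -0.70 with the ordinary Pcx probe set. These correlations over 6 arrays share the diet and the arrays. Markers of brown adipocytes were bright as well, although the fat around the vessel was stripped: Ucp1, the uncoupling protein, read 2121.6 to 2723.6 on chow and 3154.2 to 3664.2 on high fat diet. All 7 tested members of that list were higher in mean on high fat diet, at a median log2 fold change of 0.50. The summed signal of the 8 on the array was 6724 to 8875 on chow and 10351 to 12559 on high fat diet. Averaged over the list, the log2 signal lay off its average over the arrays by -0.38, -0.44 and -0.03 in chow replicates 1, 2 and 3 and 0.09, 0.44 and 0.32 in high fat replicates 1, 2 and 3. Pdk4 deviated by -0.11, -0.76 and -0.06 on chow and by -0.08, 0.62 and 0.39 on high fat diet, and the bright Pdhb probe set by -0.33, -0.47 and 0.13 and by 0.02, 0.32 and 0.34. In all of these chow replicate 2 was lowest and high fat replicates 2 and 3 were highest. Macrophage markers had the same lowest pool and the same 2 highest, with deviations of -0.07, -0.43 and -0.17 on chow and -0.11, 0.54 and 0.24 on high fat diet, and summed signals of 1827 to 2297 and 2333 to 3917. The brown adipocyte and macrophage lists each had 8 markers on the array, of which 7 were bright enough for the test. Of the 7 macrophage markers tested 6 had higher means. The other, Cd14, was lower, with 167.1 ± 23.0 on chow and 133 ± 11.6 on high fat diet (-0.31, adjusted p = 0.752, limma), and its diets did not overlap. Over the 6 arrays the average of the brown adipocyte list had r = 0.90 with Pdk4 and -0.63 with the ordinary Pcx probe set. For the macrophage list these were 0.96 and -0.57. The part of these cell types in the values of Pdk4, Pdhb, Dlat and Pcx was not tested.

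**Figure D4:**
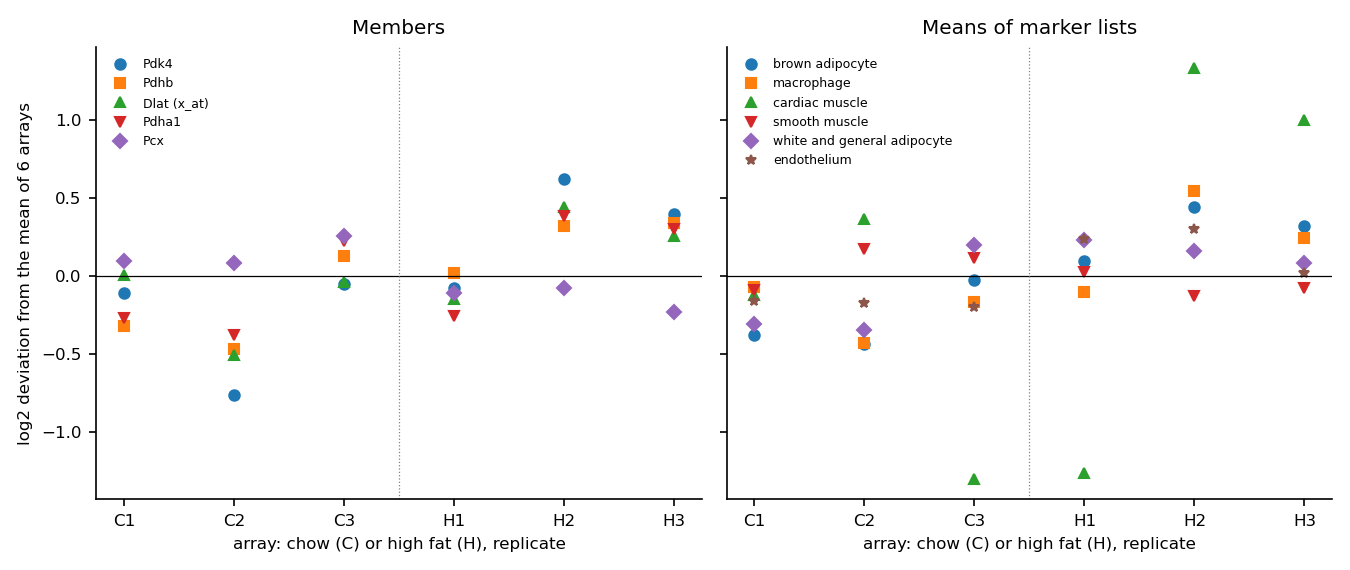
Deviation of log2 signal from its average over 6 arrays (vertical axis) for 5 probe sets (left) and for the mean of 6 marker lists (right), by array, with chow (C1 to C3) left and high fat (H1 to H3) right of the dotted line. Pdk4, the bright Pdhb and the second Dlat probe set are lowest in C2, at -0.76, -0.47 and -0.51, and Pcx is above 0 in each chow pool and below 0 in each high fat pool.

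All 13 cardiac muscle markers were higher in mean on high fat diet (median 0.69), and none passed the test. Their summed signals overlapped, at 1092 to 4634 on chow and 1156 to 8895 on high fat diet, and heart muscle is rich in Pdk4. With the mean of these markers as a covariate the log2 fold change of Pdk4 was 0.56, those of Pdhb were 0.45 and 0.59 and that of the ordinary Pcx probe set was -0.26, beside 0.62, 0.45, 0.53 and -0.28 without it. Of 9 skeletal muscle markers 3 were bright enough for the test, and 2 of these had lower and 1 a higher mean on high fat diet. The summed signals of that list overlapped, at 282 to 905 on chow and 286 to 543 on high fat diet. Summed white and general adipocyte markers overlapped between the diets, at 6001 to 8435 on chow and 7509 to 7784 on high fat diet, and their members differed in direction. Of 6 tested 5 had higher means, while Retn, resistin, fell from 464 ± 70.7 to 216.9 ± 1.31 (-1.07, adjusted p = 0.0435). Lep, leptin, was too dim for the test, at 17.33 ± 10.3 on chow and 78.1 ± 29.3 on high fat diet. The average of this list had r = 0.96 with the dim Pdhb probe set over the 6 arrays, and its part in that value was not tested.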

How the data were processed

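RNA was measured on 6 Affymetrix arrays, 3 per diet. The deposited file gives each probe set 1 linear intensity per array. Per the submitters' processing notes these come from MAS5, which combines the probes of a probe set into 1 signal; which version was run is not given in the sources used here. Each array had a 2% trimmed mean of 150.05, and this scaling by the authors was kept. Detection calls were not used here, so a dim signal cannot be told from background.

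Genes were named from the platform annotation, and all 8 measured genes matched a current gene table by ID. The 64 control probe sets were left out of the test, among them 4 for Pcx, which are given as values and from a fit without a filter. Signals were taken as log2(signal + 6), the pseudocount being the 10th percentile, and fold changes are on that scale, which understates changes of dim probe sets. Probe sets with a mean above the 40th percentile were kept. High fat was tested against chow in R 4.3.3 using limma 3.58.1 (eBayes with a variance trend, two-sided, Benjamini-Hochberg adjustment, threshold 0.05). Differences between genes used an exact permutation test over the 6 arrays. The limma steps were tested on simulated data with planted changes larger than any fold change of these genes. Recovery of changes as small as theirs was not tested, and the permutation step was not simulated. Figures were drawn with matplotlib 3.10.9 in Python 3.11.15.

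All probe sets of the 9 genes are named; of each pathway list, with 1 probe set per gene (highest mean), the genes past the threshold or else the 2 of smallest p are named, and Mpc1, Ldha, Ldhb, Pck1, Pck2, Foxo1, Acadl, Slc25a20, Ogdh, Bckdha, Dbt, Retn and Lep were added after their values were seen. The genes most like Pdk4 and Pcx are the 5 of highest correlation with the member of smallest p in each direction. Members and lists were chosen with earlier results of these data known. Alternatives were other pseudocounts, filters, scalings and variance models, the replicate number as a block, a cardiac covariate and each array left out. Keeping the Pcx controls in the fit, with and without the filter, was added after seeing the data.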

Additional observations from a re-analysis of the deposited data

How the results depend on the processing

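Under 16 other settings no probe set of these genes passed the threshold, and averaging a gene's probe sets gave 0 as well. Of 189 values of single probe sets under these settings, 5 changed sign, all with a pool left out. These were the bright Pdha1 probe set, which ranged from -0.05 to 0.36, the brighter Pdk1 probe set, from -0.54 to 0.14, and Pdk2, from -0.12 to 0.16, when each pool was left out in turn. The unadjusted p of the ordinary Pcx probe set depended on the processing. In limma it was 0.0599 in the main fit, under 0.05 with no filter or with equal medians, and 0.0269 with probe sets averaged by gene. The count of 10 probe sets past the threshold over the whole array was 6 with no filter on low signals, 6 with the cardiac covariate, 5 without the variance trend, and between 5 and 16 when each pool was left out (5 without high fat replicate 2 or chow replicate 2, 16 without high fat replicate 1). The cause of these changes was not tested. With the replicate number as a block the count was 5 and Pdk4 had 0.62 with an adjusted p of 0.588. Same-numbered pools shared only a number: their deviations correlated at 0.03, 0.17 and -0.11, and not every pool correlated best with its own number. Dim probe sets (Pdk1, Pdk3, the 5′ and middle Pcx controls) limit what can be seen, since no detection calls were used.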
